A study of Mus musculus with 5 samples.

Results

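The collagen genes of mouse liver tumours were taken from a deposited gene table as all rows whose symbol is Col, digits, the letter a and digits, which gave 44 of 22287 genes. The tumours grew in the liver of C57BL/6 mice under DEN+CCl4 for 5 months, DEN being a carcinogen and CCl4 an agent that injures hepatocytes. There were 3 libraries (KO 1 to KO 3) of genotype lnc-CTHCC-/- (KO), lacking a long non-coding RNA, and 2 (WT 1 and WT 2) of wild type. KO and WT tumours share the strain and the DEN+CCl4 exposure, so no untreated liver stands beside them. The labels name neither the deletion strategy nor the number of mice, and nothing says that the libraries of a genotype come from separate animals, so p-values measure only the spread between these libraries.

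Collagens are matrix proteins whose chains wind into a triple helix built on repeats that begin with glycine. Fibrillar collagens form the cables of scar tissue, basement membrane collagens form sheets under endothelium and epithelium, and other classes link, cover or anchor these structures. In liver injured by CCl4, hepatic stellate cells turn into myofibroblasts and are the main source of fibrillar collagen. KO tumours were compared with WT tumours gene by gene and class by class.

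Levels are in FPKM, which divides a gene's fragments by its length and by the library's size, so levels of different genes can be set side by side. Summed over all genes, FPKM ran from 526230 to 537960 in KO and stood at 552620 and 530210 in the WT libraries, and the sequencing depth is unknown. Alb, the serum albumin gene that defines hepatocytes, was at 78320 to 83027 FPKM in KO and at 94258 and 74739 FPKM in WT. The genotypes are used as labelled, since lnc-CTHCC itself was not analysed here. In tumour tissue, fewer cells of a type and less RNA per cell cannot be told apart.

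Of the 44 collagen genes, 15 had a mean of at least 1 FPKM over the 5 libraries and were tested, 24 were above 0 in some library but below that mean, and 5 were listed at 0 in every library. Those at 0 were Col2a1, Col9a1, Col19a1, Col22a1 and Col26a1, of which Col2a1 and Col9a1 encode cartilage collagens. The tested genes comprised 5 of 11 fibrillar, 6 of 8 basement membrane, 3 of 6 beaded filament and 1 of 9 FACIT genes (fibril-associated collagens, which coat fibrils). No short-chain network, transmembrane, anchoring or other collagen reached the mean. Nearest to that limit were Col4a5 inside it, with a mean of 1.62 FPKM, and Col12a1 outside it, with 0.936 FPKM.

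No collagen gene differed between KO and WT past the threshold. By limma on log2(FPKM + 1), 0 of 15 had an adjusted p under 0.05, against 0.00987% of the 10132 genes tested, and the adjusted p was 0.999 for each of the 15. Without adjustment, 1 of 15 had a limma p under 0.05, against 3.23% of all genes tested. With median-ratio rescaling 2 of 15 did, Col15a1 and Col4a5, against 4.04%. The mean was higher in KO for 12 of the 15 and lower for 3, while 61.4% of all genes tested were higher in KO. With median-ratio rescaling 11 of the 15 had a difference above 0, the sign of Col1a1 having turned, and 50.6% of all genes tested did. The median log2 difference of the 15 genes was 0.13, with a range of -0.52 to 0.54, and that of all genes tested was 0.05. Without WT 1 the median of the collagen genes was -0.04, below 0, and that of all genes tested was -0.07. Without WT 2 these medians were 0.39 and 0.16, and without KO 1 they were 0.03 and 0.02.

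KO and WT values did not overlap in 1 of the 15 tested genes, against 15.1% of all genes tested. KO lay above WT in that gene, Col4a5, as in 9.78% of all genes tested, and below WT in 0 of the 15, against 5.29% of all. Of the 24 collagen genes above 0 that were not tested, 2 did not overlap, against 14.2% of all such genes. KO lay above WT in 1 of them, against 6.52%, and below it in 1, against 7.65%. The count depends on the scaling: with median-ratio rescaling 3 of the 15 tested genes did not overlap, Col14a1 and Col4a5 with KO above and Col15a1 with KO below, against 18.3% of all genes tested in that way. With 1 library left out it was 2 to 7, while the share over all genes tested was 21.2% to 62.1%. An exact permutation test of 3 libraries against 2 reaches no smaller two-sided p than 0.1, and single genes were not tested that way. KO 1 held the highest value in 10 of the 15 genes, where it did so in 31.5% of all genes tested. The lowest value lay in KO 3 for 7 genes and in WT 1 for 6, where these libraries were lowest in 20.2% and 46.4% of all genes tested.

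**Figure D1:**
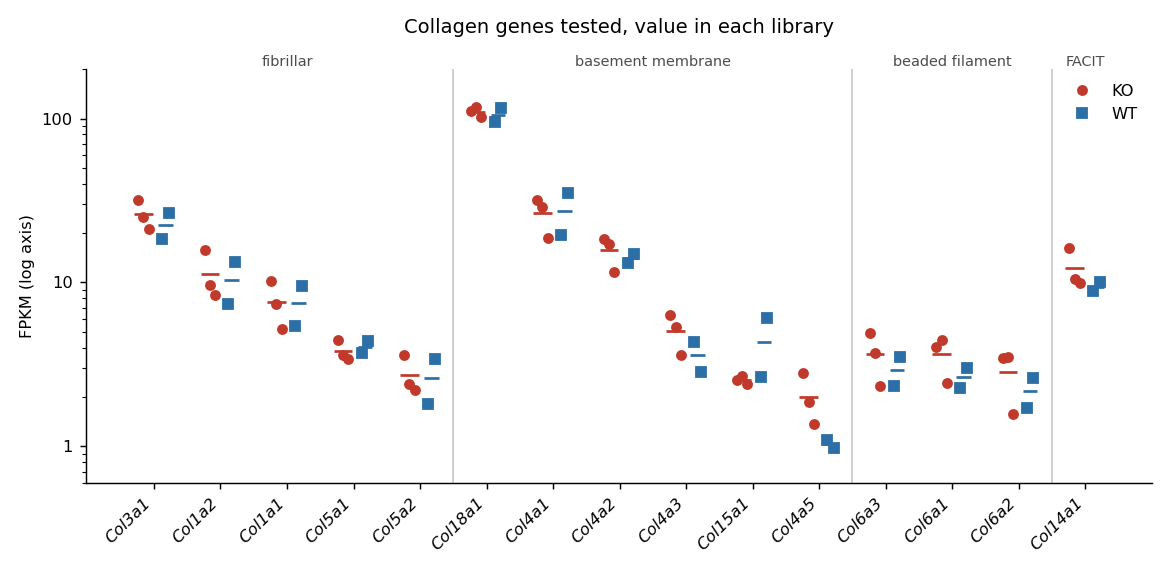
FPKM of the 15 tested collagen genes in each library on a log axis, KO as red circles left of WT as blue squares, with horizontal bars at the group means and vertical lines between classes. Col18a1 stands above the other collagens at 95.3 to 118 FPKM, and Col4a5 is the gene whose KO and WT values do not overlap in FPKM as deposited, a count that was 3 genes with median-ratio rescaling.

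Fibrillar collagens of types I, III and V overlapped between the genotypes gene by gene, apart from the low Col5a3. Summed over the 11 fibrillar genes, the level was 66.5, 48.5 and 40.9 FPKM in the KO libraries and 37.2 and 58.1 FPKM in the WT libraries. The sums averaged 52.0 ± 13.2 FPKM in KO (SD, n = 3) and 47.6 ± 14.8 FPKM in WT (SD, n = 2), a ratio of 1.09. The genotypes overlapped, with KO 1 and WT 2 high and KO 3 and WT 1 low.

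Col3a1 (ENSMUSG00000026043, chromosome 1, 45311538 to 45349706, on the plus strand), the chain of the type III homotrimer of extensible tissues, was the most abundant fibrillar gene. It was at 31.8, 25.0 and 21.2 FPKM in KO and at 18.4 and 26.5 FPKM in WT, with a log2 difference of 0.21 (limma SE 0.229, 95% interval -0.31 to 0.73). KO 1 was the highest library and WT 1 the lowest, and WT 2 lay within the KO range. The bases just before its start are shown because it leads the fibrillar class. They are 150 bases of mm10 (GRCm38.p6) from RefSeq, plus strand, chr1:45311388-45311537, with a TATAAA match in capitals that begins at position -117, counted from the RefSeq start.

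Col3a1: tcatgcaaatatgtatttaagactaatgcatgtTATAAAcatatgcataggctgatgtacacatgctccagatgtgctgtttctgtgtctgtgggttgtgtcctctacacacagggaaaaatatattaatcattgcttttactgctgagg

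The motifs CCAAT (bound by NF-Y), TATAAA (the TATA box) and GGGCGG (the core of the Sp1 site) were searched on both strands in the 150 bases before each RefSeq start. Each motif was counted on its own, also where matches overlapped. RefSeq had 38 start regions for 35 of the 44 genes. CCAAT was found in 8 of 38 collagen regions and in 24.5% of 32851 regions of all genes, TATAAA in 4 of 38 and in 7.57%, and GGGCGG in 19 of 38 and in 28.6%. Of the 13 regions of 11 tested genes, 3 held CCAAT, 1 held TATAAA and 5 held GGGCGG. A match is a run of letters and was not tied to any factor here.

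Col1a1 (chromosome 11, 94936224 to 94953042, on the plus strand) and Col1a2 (chromosome 6, 4504814 to 4541544, on the plus strand) encode the chains of type I collagen, the main protein of scar. Col1a1 was at 10.1, 7.36 and 5.19 FPKM in KO and at 5.40 and 9.52 FPKM in WT, a log2 difference of 0.02 (limma SE 0.297, 95% interval -0.65 to 0.70). Col1a2 was at 15.8, 9.63 and 8.43 FPKM in KO and at 7.34 and 13.4 FPKM in WT, a log2 difference of 0.12 (limma SE 0.307, 95% interval -0.58 to 0.82). In each gene KO 1 was highest, WT 2 next and KO 2 in the middle, and the genotypes overlapped. The type I protein holds more alpha 1 than alpha 2 chains. In RNA, which does not measure the protein chains, the Col1a1 level was below the Col1a2 level in each library. The ratio of Col1a1 to Col1a2 was 0.640, 0.764 and 0.616 in KO and 0.736 and 0.712 in WT. Col3a1 exceeded Col1a1 in each library, by 3.14, 3.4 and 4.08 times in KO and 3.41 and 2.78 times in WT.

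Type V collagen sits inside type I fibrils and helps set their diameter. Col5a1 (chromosome 2, 27886425 to 28039514, on the plus strand) was at 4.47, 3.58 and 3.4 FPKM in KO and at 3.69 and 4.38 FPKM in WT, and its log2 difference of -0.07 had a 95% interval of -0.51 to 0.38. Col5a2 (chromosome 1, 45374321 to 45503282, on the minus strand) was at 3.58, 2.41 and 2.21 FPKM in KO and at 1.82 and 3.4 FPKM in WT, with a log2 difference of 0.07 and a 95% interval of -0.51 to 0.64. The order of the 5 libraries was the same for Col5a2 as for Col3a1, with KO 1 above WT 2, KO 2, KO 3 and WT 1. Col1a2 and Col16a1, on chromosomes 6 and 4, had this order too, so it is not particular to neighbours. Col9a3, on chromosome 2, also had it, but at no more than 0.04 FPKM, where 2 decimals leave few steps. Col3a1 and Col5a2 lie tail to tail on chromosome 1, with 24614 bases and no other protein-coding gene between them.

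Col5a3 (chromosome 9, 20770050 to 20815067, on the minus strand), a further type V chain, was low and lay under the mean of 1 FPKM. It was at 0.21, 0.14 and 0.17 FPKM in KO and at 0.36 and 0.66 FPKM in WT, so each KO library lay below each WT library. With no expression filter its log2 difference was -0.36 (limma SE 0.0921, adjusted p = 0.948 over the 16286 genes above 0). In the authors' deposited table it has a log2 fold change of -1.56 and a false discovery rate of 0.0639, the smallest rate of any collagen gene there. In the authors' deposited table a rate under 0.05 is given for 0 of the 44 collagen genes and for 36 of 22287 genes, 0.162%. An unadjusted p under 0.05 is given for 3 of the 44 and for 619 of 22287 genes, 2.78%, in the authors' deposited table. The start region of Col5a3 is shown as that of the only collagen gene lower in KO without overlap in FPKM as deposited. It is read on the minus strand, chr9:20815068-20815217, and capitals mark a CCAAT match at -122 and GGGCGG matches at -63 and -41, which lie on the other strand and so read CCGCCC.

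Col5a3: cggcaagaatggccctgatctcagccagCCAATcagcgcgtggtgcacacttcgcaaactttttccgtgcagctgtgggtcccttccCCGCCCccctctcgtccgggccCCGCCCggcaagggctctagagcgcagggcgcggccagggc

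Col27a1, a fibrillar collagen best known from cartilage, was at 0.41, 0.32 and 0.28 FPKM in KO and at 0.11 and 0.25 FPKM in WT. Its KO values lay above its WT values, and with no expression filter its log2 difference was 0.18 (limma adjusted p = 0.997). Col11a1, Col11a2 and Col24a1, the remaining fibrillar genes apart from Col2a1, did not exceed 0.06 FPKM in any library.

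Basement membrane collagens made up most of the collagen signal, and Col18a1 alone took 40.6% to 51.0% of it in KO and 49.7% and 44.8% in WT. Col18a1 (chromosome 10, 77052178 to 77166548, on the minus strand) encodes type XVIII collagen, the parent of endostatin, which hepatocytes express. It was at 111, 118 and 102 FPKM in KO and at 95.3 and 116 FPKM in WT, with a log2 difference of 0.07 (limma SE 0.168, 95% interval -0.31 to 0.45). It was the steadiest of the 15 genes, its highest library being 1.23 times its lowest. Without it, the other 43 collagen genes summed to 162, 130 and 98.4 FPKM in KO and to 96.5 and 142 FPKM in WT, a ratio of 1.09.

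**Figure D2:**
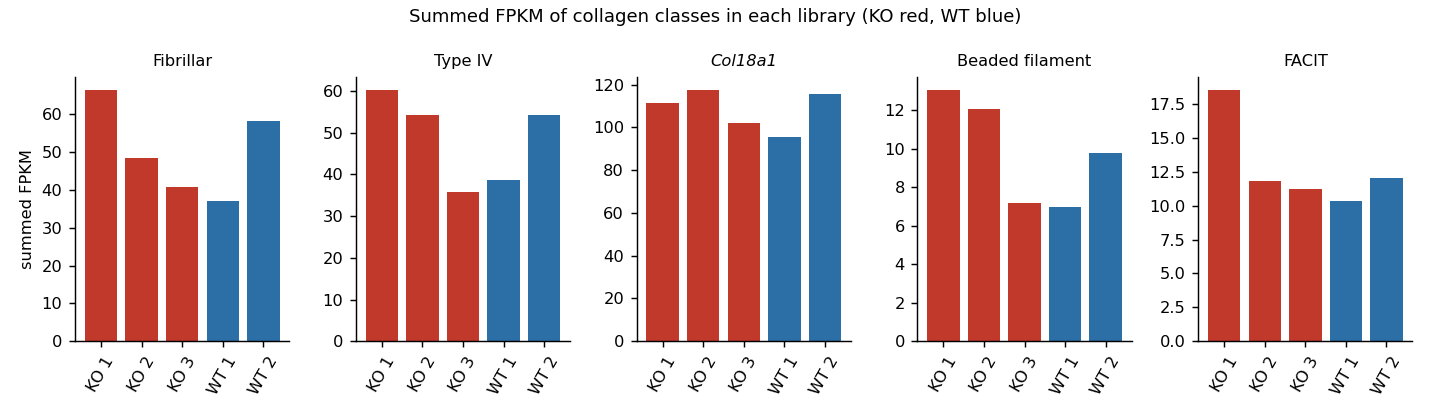
Summed FPKM of the fibrillar, type IV, beaded filament and FACIT collagens and the FPKM of Col18a1 in each library, with KO in red on the left, WT in blue on the right and a separate linear axis from 0 for each panel. KO 1 is the highest library for the fibrillar, type IV, beaded filament and FACIT sums, and KO 3 and WT 1 are the lowest for each of these.

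Col15a1 (chromosome 4, 47208161 to 47313167, on the plus strand), the other multiplexin, is a collagen of vessel basement membranes. It was at 2.54, 2.69 and 2.39 FPKM in KO and at 2.65 and 6.05 FPKM in WT. WT 2 stood apart from the other 4 libraries, which lay close together, and WT 1 fell inside the KO range. The log2 difference was -0.52 (limma SE 0.273, 95% interval -1.14 to 0.10). Without WT 2 it was -0.05, and without WT 1 it was -0.99. With median-ratio rescaling it was -0.56, with a 95% interval of -1.08 to -0.03 that did not span 0, and it did not pass after adjustment. The ratio of Col15a1 to Col18a1 was 0.0228, 0.0229 and 0.0234 in KO and 0.0278 and 0.0524 in WT. The region before its RefSeq start, plus strand, chr4:47207862-47208011, is shown because Col15a1 had the lowest log2 difference of the 15 genes, and it held none of the motifs searched.

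Col15a1: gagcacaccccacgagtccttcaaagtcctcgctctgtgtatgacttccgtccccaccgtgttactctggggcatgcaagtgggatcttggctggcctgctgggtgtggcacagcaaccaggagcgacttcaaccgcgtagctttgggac

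Type IV collagen is the network collagen of basement membranes, and its 6 genes lie in 3 pairs that are transcribed away from each other. Summed over the 6 genes, the level was 60.3, 54.2 and 35.7 FPKM in KO and 38.6 and 54.3 FPKM in WT, a ratio of 1.08 with overlap. Col4a1 and Col4a2 make the network found in all basement membranes, whereas Col4a3, Col4a4 and Col4a5 form that of the kidney glomerulus and Col4a6 joins Col4a5 in other tissues.

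Col4a1 (chromosome 8, 11198423 to 11312826, on the minus strand) was at 31.6, 28.8 and 18.7 FPKM in KO and at 19.4 and 35.1 FPKM in WT. Its partner Col4a2 (chromosome 8, 11312805 to 11449287, on the plus strand) was at 18.3, 17.2 and 11.6 FPKM in KO and at 13.1 and 14.9 FPKM in WT. KO 3 was the lowest library for each of them, while WT 2 was the highest for Col4a1 and below KO 1 and KO 2 for Col4a2. The log2 differences were -0.02 (95% interval -0.69 to 0.65) and 0.13 (95% interval -0.37 to 0.64). The ratio of Col4a1 to Col4a2 was 1.73, 1.67 and 1.62 in KO and 1.48 and 2.35 in WT. In the annotation the genes share 22 exonic bases on opposite strands at their starts. Reads there cannot be told apart without a strand setting, and none is stated in the sources used here. The same limit holds for 113 and 99 of the 8490 exonic bases of Col5a1, 43 of the 6619 of Col4a2 and 14 of the 6349 of Col15a1, which lie opposite exons of other transcripts. Col3a1 shares 141 of its 9816 exonic bases with Gm47302, a microRNA gene on the same strand, which a strand setting would not separate.

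Col4a3 (chromosome 1, 82586921 to 82722059, on the plus strand) was at 6.30, 5.32 and 3.60 FPKM in KO and at 4.35 and 2.85 FPKM in WT, with a log2 difference of 0.39 (limma SE 0.252, 95% interval -0.18 to 0.97). Its partner Col4a4 (chromosome 1, 82448423 to 82586849, on the minus strand) was lower, at 1.11, 0.89 and 0.42 FPKM in KO and at 0.59 and 0.40 FPKM in WT. The order of the libraries was the same in these genes, with KO 1 above KO 2, WT 1, KO 3 and WT 2, and the genotypes overlapped. Col4a3 exceeded Col4a4 by 5.68, 5.98 and 8.57 times in KO and by 7.37 and 7.12 times in WT. Of the 9967 exonic bases of Col4a3, 563 lie opposite exons of C430014B12Rik, a processed transcript on the minus strand whose level was not used here, so the Col4a3 level is uncertain by the reads it may share. The starts are 71 bases apart, and that gap is shown in full because the pair kept the same order of libraries. It is the plus strand, chr1:82586850-82586920, with Col4a4 to its left and Col4a3 to its right, is 69.0% G and C, and holds none of the motifs searched.

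Col4a4-Col4a3 gap: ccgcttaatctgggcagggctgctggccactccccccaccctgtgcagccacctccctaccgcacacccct

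Col4a5 (ENSMUSG00000031274, chromosome X, 141475385 to 141689234, on the plus strand) was the collagen gene with the smallest unadjusted p among those tested. It was at 2.81, 1.85 and 1.36 FPKM in KO and at 1.09 and 0.97 FPKM in WT, and averaged 2.01 ± 0.738 FPKM in KO (SD, n = 3) and 1.03 ± 0.0849 FPKM in WT (SD, n = 2). Each KO library lay above each WT library, and KO 3 was nearer to WT 1 than to KO 2. The log2 difference was 0.54 (SE 0.229, 95% interval 0.02 to 1.06, limma unadjusted p = 0.0435, adjusted p = 0.999), so the gene did not pass the test. With no expression filter the 95% interval was -0.05 to 1.13 and the limma unadjusted p was 0.0657, so the interval spanned 0. With the filter kept, the limma unadjusted p was 0.140 without KO 1, 0.0665 without KO 2 and 0.0214 without KO 3. It was 0.0400 with a pseudocount of 0.1, 0.0416 with median-ratio rescaling, 0.0425 with no trend and 0.0379 with the replicate block. None of these passed after adjustment. The difference lay between 0.35 without KO 1 and 0.58 without WT 1 when KO 1, KO 2, WT 1 or WT 2 was left out, and was 0.70 without KO 3. In the authors' deposited table its log2 fold change is 0.96 with a false discovery rate of 0.723.

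Col4a6 (chromosome X, 141165403 to 141474076, on the minus strand), across 1308 bases from Col4a5, was at 0.14, 0.14 and 0.06 FPKM in KO and at 0.05 and 0.10 FPKM in WT. At 2 decimals of FPKM its values hold few steps, and the genotypes overlapped. The region before its start lies within that gap and is shown as the start nearest to Col4a5, on the minus strand, chrX:141474077-141474226, with a GGGCGG match on the other strand in capitals at -21.

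Col4a6: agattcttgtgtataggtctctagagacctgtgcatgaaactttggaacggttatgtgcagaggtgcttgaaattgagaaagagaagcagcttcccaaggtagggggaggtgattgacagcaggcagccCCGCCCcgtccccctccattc

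**Figure D3:**
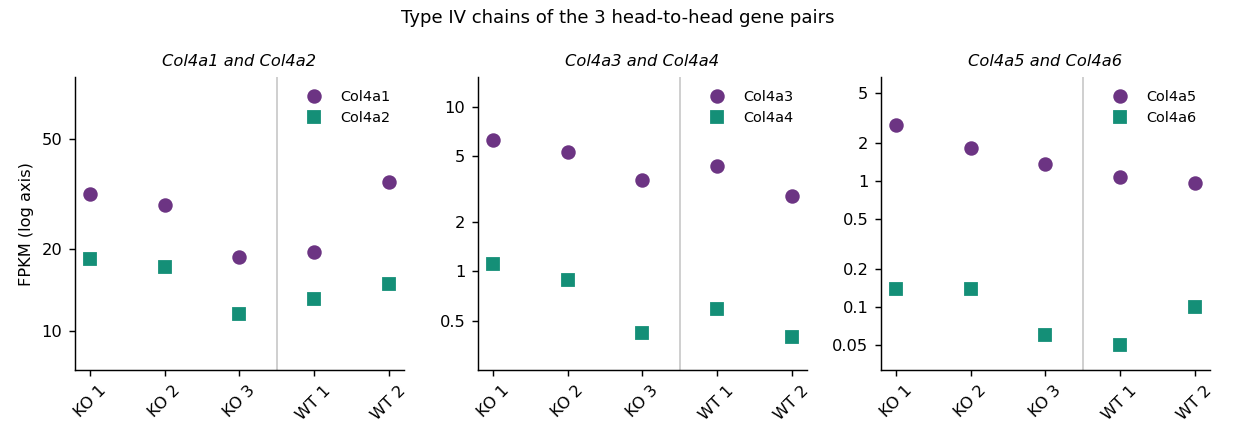
FPKM of the type IV genes in each library on log axes, 1 panel for each head-to-head pair, KO libraries left of the line and WT libraries right of it. Col4a3 and Col4a4 follow the same order of libraries, and Col4a5 is higher in the KO libraries (1.36 to 2.81 FPKM) than in the WT libraries (0.97 and 1.09 FPKM).

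Beaded filament collagen of type VI links cells to the matrix, and its main chains come from Col6a1, Col6a2 and Col6a3. The class summed to 13.1, 12.1 and 7.18 FPKM in KO and to 7.0 and 9.78 FPKM in WT, a ratio of 1.28 with overlap through KO 3. Col6a1 (chromosome 10, 76708792 to 76726168, on the minus strand) was at 4.02, 4.43 and 2.44 FPKM in KO and at 2.26 and 3.01 FPKM in WT. Col6a2 (chromosome 10, 76595762 to 76623630, on the minus strand) was at 3.47, 3.51 and 1.57 FPKM in KO and at 1.72 and 2.60 FPKM in WT. Col6a1 and Col6a2 were highest in KO 2 and then KO 1, and KO 3 lay inside or below the WT range.

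Col6a3 (chromosome 1, 90765923 to 90843971, on the minus strand), the long chain, was at 4.92, 3.73 and 2.32 FPKM in KO and at 2.34 and 3.51 FPKM in WT. The log2 differences were 0.33 for Col6a1, 0.25 for Col6a2 and 0.22 for Col6a3, with 95% intervals of -0.22 to 0.88, -0.39 to 0.89 and -0.39 to 0.84. The chains stayed near equal levels: the ratio of Col6a1 to Col6a2 was 1.16 to 1.55 in KO and 1.31 and 1.16 in WT. The ratio of Col6a3 to Col6a1 was 0.842 to 1.22 in KO and 1.04 and 1.17 in WT. Col6a4, Col6a5 and Col6a6, a tandem group on chromosome 9, reached at most 0.50 FPKM in any library.

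Among the FACIT genes, Col14a1 (chromosome 15, 55307750 to 55520803, on the plus strand), which coats fibrils and is known from stellate and fibroblast cells, was at 16.2, 10.4 and 9.85 FPKM in KO and at 8.86 and 10 FPKM in WT. KO 1 stood above the other 4 libraries, and KO 3 fell inside the WT range. The log2 difference was 0.31 (limma SE 0.233, 95% interval -0.22 to 0.84), and it was 0.10 without KO 1. Col12a1, a like coat protein, averaged 0.883 ± 0.301 FPKM in KO (SD, n = 3) and 1.02 ± 0.0919 FPKM in WT (SD, n = 2), and Col16a1 averaged 0.757 ± 0.253 FPKM in KO and 0.715 ± 0.304 FPKM in WT.

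Col8a1, a short-chain collagen of vessel walls, was at 0.94, 0.68 and 0.55 FPKM in KO and at 0.48 and 1.31 FPKM in WT. The transmembrane genes Col13a1, Col17a1, Col23a1 and Col25a1 summed to 0.15 to 0.31 FPKM in KO and to 0.13 and 0.39 FPKM in WT. Col7a1, of anchoring fibrils, did not exceed 0.06 FPKM. Of the 24 collagen genes above 0 that were not tested, the KO mean was above the WT mean in 14, below it in 9 and equal in 1. With no expression filter the smallest limma adjusted p among the 39 collagen genes fitted was 0.948, that of Col5a3.

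**Figure D4:**
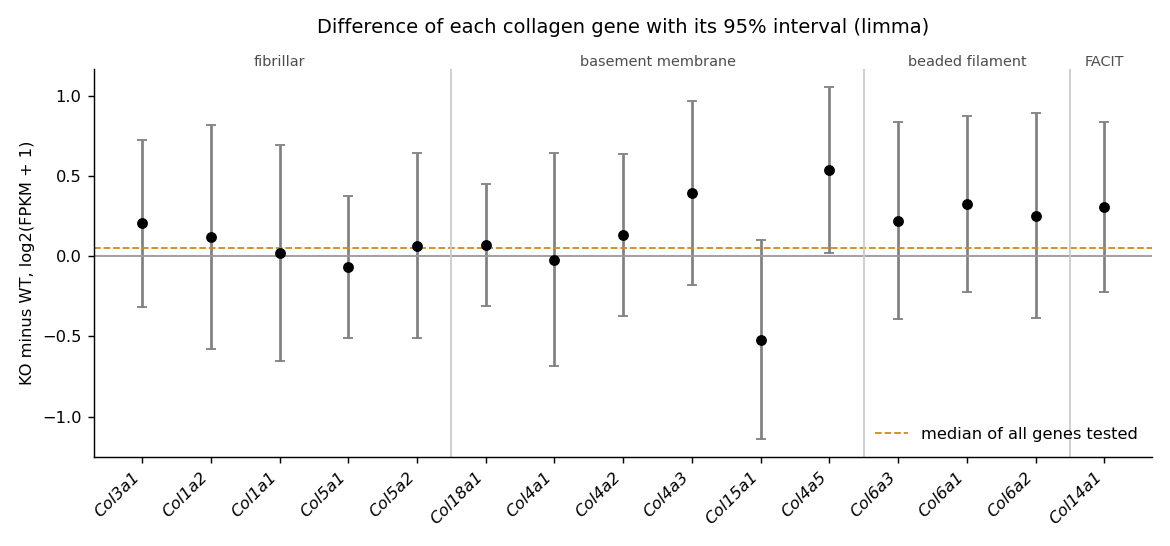
Difference in log2(FPKM + 1) between KO and WT (KO minus WT) of each tested collagen gene (points) with its 95% interval from limma (bars), by class. The interval of each gene spans 0 except that of Col4a5 (0.02 to 1.06), which did not pass after adjustment and whose interval spanned 0 with no expression filter (-0.05 to 1.13), and the dashed line marks the median of all genes tested (0.05).

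The signs of 7 of the 15 differences turned when 1 library was left out. Col18a1 and Col3a1 turned without WT 1, Col4a1 without WT 2 or KO 3, and Col5a1 without WT 2. Col1a1, Col1a2 and Col5a2 turned without KO 1 or WT 1. For the 8 others, the 3 type VI genes and Col14a1, Col15a1, Col4a2, Col4a3 and Col4a5, the sign stayed the same in each of these fits.

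Genes that act on collagen were read from the same fit, and none of them passed the test. Of 25 genes of collagen biosynthesis and processing, 16 were tested, of which 12 had a log2 difference above 0 and 4 below 0, with a median log2 difference of 0.06. With median-ratio rescaling 8 were above 0 and 8 below. P3h1, the enzyme of the prolyl 3-hydroxylase complex, was at 7.57 to 10.7 FPKM in KO and at 7.88 and 8.03 FPKM in WT. Its partner Crtap was at 8.80 to 11.1 FPKM in KO and at 9.39 and 7.23 FPKM in WT. Adamts14, a propeptide-cutting protease, had a log2 difference of 0.33 and Fkbp10, a collagen chaperone, 0.19. Of the lysyl oxidases, which cross-link collagen, 3 of 5 were tested. Loxl4 averaged 1.19 FPKM in KO and 0.9 FPKM in WT, without overlap. KO thus lay above WT without overlap in 1 of the 3, against 9.78% of all genes tested. Loxl2 averaged 3.56 FPKM in KO and 3.38 FPKM in WT, with overlap. Loxl1 averaged 1.46 FPKM in KO and 1.47 FPKM in WT.

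Collagen receptors did not pass either. Ddr1, a receptor tyrosine kinase that collagen activates, was at 11.3, 8.39 and 7.67 FPKM in KO and at 6.39 and 5.11 FPKM in WT, without overlap. Its log2 difference was 0.57 (limma SE 0.215, adjusted p = 0.999). Itgb1, the integrin beta 1 chain, was at 63.6 to 73.1 FPKM in KO and at 47.2 and 61.9 FPKM in WT, without overlap and with a log2 difference of 0.30. Itga2, the alpha 2 chain of a collagen integrin, lay lower in KO, at 0.55 to 1.33 FPKM against 1.55 and 1.42 FPKM in WT, and Itga1 had a log2 difference of 0.19. In all, 3 of the 5 receptors tested did not overlap between KO and WT, 2 with KO above and 1 with KO below, where 15.1% of all genes tested did not.

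The small leucine-rich proteoglycans, which bind fibrils and shape them, had a log2 difference above 0 for 5 of 5 genes tested, with a median of 0.22. All genes tested were above 0 in 61.4%. With median-ratio rescaling it was again 5 of 5, against 50.6%. It was 4 of 5 without KO 1, against 53.8%, and 3 of 5 without WT 1, against 39.7%. Dcn, decorin, was at 65.7, 40.1 and 57.8 FPKM in KO and at 35.7 and 43.2 FPKM in WT. Bgn, biglycan, was at 96.0, 78.6 and 65.2 FPKM in KO and at 62.8 and 72.6 FPKM in WT. Each overlapped between the genotypes, as did Prelp and Lum, whose log2 differences were 0.26 and 0.18. Of 14 genes of the TGF-beta pathway, the main inducer of collagen in stellate cells, 12 were tested, with a log2 difference above 0 in 6 and below 0 in 6 and a median of 0.01. Tgfbr3, the co-receptor betaglycan, was at 3.31, 2.44 and 1.84 FPKM in KO and at 1.24 and 1.34 FPKM in WT (log2 difference 0.60, limma adjusted p = 0.999). Tgfb1, the ligand, was at 5.18 to 7.24 FPKM in KO and at 7.5 and 7.99 FPKM in WT, with KO below WT in each library. Of the 12 tested, 1 had KO above WT without overlap and 1 had KO below, against 9.78% and 5.29% of all genes tested. Tgfb3 and Smad4 had log2 differences of -0.24 and 0.25.

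**Figure D5:**
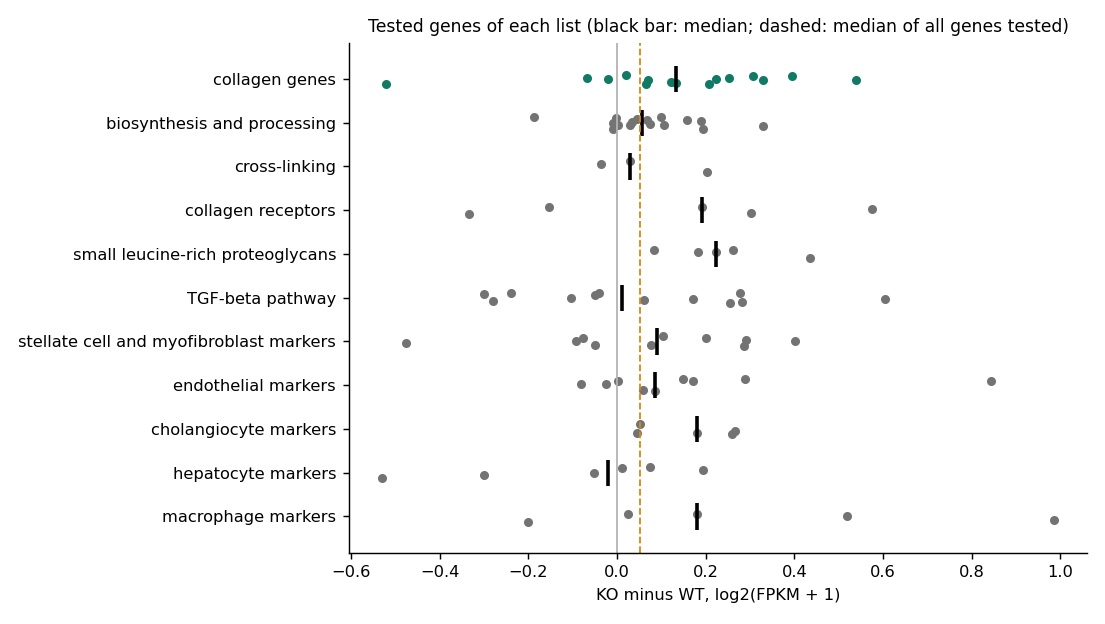
Difference in log2(FPKM + 1) between KO and WT (KO minus WT) of the tested genes of each list (points), with the list's median as a black bar and the median of all genes tested (0.05) as a dashed line. The collagen genes, in green at the top, run from -0.52 (Col15a1) to 0.54 (Col4a5).

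Markers of cells that make collagen, or that a tumour piece can hold beside hepatocytes, were read library by library, and each marker found was above 0. The 10 stellate cell and myofibroblast markers, all tested, summed to 60.9, 41.8 and 41.5 FPKM in KO and to 43.8 and 46.9 FPKM in WT, with a log2 difference above 0 in 6, below 0 in 4 and past the threshold in 0. KO 1, highest for most collagens, was the highest library in this sum. It was also highest in the sums of the cross-linking, receptor, proteoglycan, TGF-beta and endothelial lists. It was not highest in those of the biosynthesis, cholangiocyte, hepatocyte and macrophage lists. Acta2, the smooth muscle actin of myofibroblasts, was at 10.4, 7.80 and 4.56 FPKM in KO and at 9.68 and 11.3 FPKM in WT. Pdgfrb, a receptor that marks stellate cells, was at 3.34, 2.89 and 2.06 FPKM in KO and at 2.51 and 2.55 FPKM in WT. Lrat, which stores retinol in quiescent stellate cells, had a log2 difference of 0.40, Rgs5 of 0.29 and Reln of 0.29. The differences of Acta2 and Pdgfrb were -0.48 and 0.08.

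The 9 endothelial markers summed to 92.6, 65.8 and 65.2 FPKM in KO and to 61.4 and 63.7 FPKM in WT, with a log2 difference above 0 in 7 and below 0 in 2 (6 and 3 with median-ratio rescaling). Pecam1, the defining marker, was at 13.4, 12 and 10.3 FPKM in KO and at 10.7 and 13.1 FPKM in WT, with overlap. Lyve1, of sinusoidal endothelium, was at 18.1, 6.58 and 7.92 FPKM in KO and at 5.06 and 5.08 FPKM in WT, without overlap. KO lay above WT without overlap in 2 of the 9 markers, against 9.78% of all genes tested. Eng, Cdh5 and Stab2 had log2 differences of 0.29, 0.15 and 0.17. The cholangiocyte markers, of which 5 of 7 were tested, had a log2 difference above 0 in 5 of 5, against 61.4% of all genes tested, and in 3 of 5 with median-ratio rescaling, against 50.6%. They summed to 161 to 354 FPKM in KO and to 156 and 428 FPKM in WT, most of it from Spp1, which averaged 273 FPKM in KO and 282 FPKM in WT. Krt19, a keratin that defines bile duct cells, was at 1.05 to 1.81 FPKM in KO and at 0.61 and 1.56 FPKM in WT, and Epcam and Sox9 had log2 differences of 0.18 and 0.05.

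The 6 hepatocyte markers found, out of 7 listed, summed to 110150 to 111370 FPKM in KO and to 129380 and 99010 FPKM in WT, with a log2 difference above 0 in 3 and below 0 in 3 (2 and 4 with median-ratio rescaling). KO lay below WT without overlap in 2 of the 6, Ttr and Fga, against 5.29% of all genes tested. Their log2 differences were -0.53 and -0.30, and Apoa1, Hnf4a and Alb had differences of 0.19, 0.08 and -0.05. Of 6 macrophage markers, 5 were tested, with a log2 difference above 0 in 4 and below 0 in 1 (3 and 2 with median-ratio rescaling), and the list summed to 24.4 to 49.8 FPKM in KO and to 29.2 and 39.7 FPKM in WT. Marco and Clec4f had log2 differences of 0.99 and 0.52, Adgre1 of 0.18 and Cd68 of -0.20. No marker passed the limma threshold, and the part of any cell type in the collagen levels was not tested.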

How the data were processed

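RNA was extracted from the tumours with Trizol, per the labels' protocols, and made into libraries by Illumina protocols. Tools listed without a role in the submitters' processing notes are HISAT2, StringTie, bcl2fastq 2.0, limma and DESeq2, and the build listed is mm10. Per the file headers, the authors deposited FPKM for each library, to 2 decimals. The authors' deposited table also gives a mean FPKM, a log2 fold change, a p-value and a false discovery rate per gene, and no source used here says which tool made these. FPKM holds no totals, so depth and counting error are unknown.

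Genotype and replicate came from the sample titles. Genes with a mean of at least 1 FPKM over 5 libraries were tested on log2(FPKM + 1) by limma 3.58.1 in R 4.3.3 (two-sided, without covariates, variances moderated along a trend with mean level, 3 residual degrees of freedom), with Benjamini-Hochberg adjustment over 10132 genes at 0.05. The difference is KO minus WT, and this scale understates changes of low genes. Ensembl identifiers gave coordinates, 1-based, in GENCODE vM21 (GRCm38, as mm10), where 22253 of the 22287 were found. Start regions came from RefSeq on GRCm38.p6, and those shown overlap no annotated exon. All tested collagen genes are named, with up to 4 tested genes per list by the smallest p and Acta2, Pdgfrb, Pecam1, Krt19 and Alb. A gene that this rule also names is not reported here. Members, classes and lists were chosen with earlier results of these data known. Spp1 and the collagen genes that were not tested were named after their values were seen. Alternatives were no expression filter, a mean of at least 5 FPKM, a pseudocount of 0.1, median-ratio rescaling, no trend, a block for the replicate number, and each library left out. Sums without Col18a1 and a count over all collagen genes above 0 were added after seeing the data. Figures used matplotlib 3.10.9 in Python 3.11.15.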

Additional observations from a re-analysis of the deposited data

How the results depend on the processing

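No collagen gene passed limma's threshold under any of the 11 alternatives, and the lowest adjusted p of any was 0.141, that of Col15a1 without WT 1. Of 157 recomputed collagen differences 144 kept their direction and 13 reversed, and for the other genes named 416 kept it and 28 reversed; the cause was not tested. The number of all genes called was 1, and it was 0 with no expression filter, with a mean of at least 5 FPKM and with median-ratio rescaling, and 62 with the replicate block; with 1 library left out it ran from 0 to 17. The number of collagen genes without overlap was 1 of 15, against 15.1% of all genes tested. It was 0 of 7 with a mean of at least 5 FPKM (14.3% of all), 3 of 39 with no expression filter, which are all collagen genes above 0 (14.7%), and 3 of 15 with median-ratio rescaling (18.3%). It was 2 of 15 without KO 1 (21.2%), 2 of 16 without KO 2 (25.8%), 7 of 15 without KO 3 (28.5%), 4 of 15 without WT 1 (55.5%) and 7 of 15 without WT 2 (62.1%). The median log2 difference of the collagen genes ran from -0.043 without WT 1 to 0.39 without WT 2. With median-ratio rescaling the log2 difference was -0.030 for Col1a1, -0.019 for Loxl2, -0.053 for Pecam1 and -0.012 for Sox9, and with the replicate block it was 0.20 for Col4a1 and 0.14 for Loxl1. With 1 library left out it ran from -0.068 to 0.21 for Col18a1, -0.34 to 0.38 for Col1a1, -0.27 to 0.51 for Col1a2, -0.043 to 0.46 for Col3a1, -0.43 to 0.39 for Col4a1, -0.17 to 0.032 for Col5a1 and -0.25 to 0.39 for Col5a2. It likewise ran from -0.0065 to 0.66 for Adamts14, -0.076 to 0.44 for Adgre1, -0.22 to 0.12 for Alb, -0.16 to 0.55 for Apoa1, -0.44 to 0.037 for Cd68, -0.16 to 0.52 for Epcam, -0.10 to 0.48 for Fkbp10 and -0.033 to 0.42 for Itga1. For the rest it ran from -0.075 to 0.59 for Krt19, -0.27 to 0.14 for Loxl1, -0.16 to 0.23 for Loxl2, -0.29 to 0.65 for Lum, -0.033 to 0.22 for Pdgfrb, -0.13 to 0.14 for Pecam1, -0.035 to 0.54 for Smad4 and -0.34 to 0.43 for Sox9. Whether the shared replicate numbers pair the libraries was not settled. The deviations of same-numbered libraries from their genotype mean correlated across genes at 0.088 for number 1 and -0.241 for number 2. With 2 WT libraries, both values rest on the same WT deviation with its sign turned, so they cannot decide whether libraries were paired. KO 3 has a number of its own, so it adds nothing to the difference in the replicate block. Depth is unknown, and values under 1 FPKM at 2 decimals limit the low collagen genes.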
